A study of Homo sapiens with 3 samples.

Results

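The genes described here are 10 that p53 regulates or that regulate p53, followed in H128 cells after knockdown of ESRRG, the gene encoding ERRγ. They were chosen by name, as direct p53 targets (CDKN1A, GADD45A, GADD45B, SESN1, CCNG1, PPM1D, RRM2B, ZMAT3 and MDM2 itself) and p53 inhibitors (MDM2 and MDM4), and because their estimated counts in these same libraries did not move together. The 10 genes are part of the 17448 in the deposited table, and all 10 passed the filter of at least 10 counts in at least 1 library, as did 14031 genes in all. Because the measured counts took part in the choice, the values below are a description and carry no test.

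H128 is an established human small cell lung cancer (SCLC) cell line. Total RNA was sequenced 48 h after transfection with a control siRNA (siCont) or with an siRNA against ESRRG (siERRG2 or siERRG3), and each of the 3 conditions has 1 library. The growth label is the same for all 3, and their shared treatment label also names the compound DN200434, but the sample titles name an siRNA alone. Which ESRRG siRNA sequence of the study went into siERRG2 and which into siERRG3 is not settled by the labels. There is no replicate library, so no difference could be set against the spread between cultures, and the intervals given are 95% exact binomial (Clopper-Pearson) intervals of a scaled count ratio, or exact Poisson intervals of a count, both of which cover counting error only. No molecular identifiers are named for these libraries, so reads copied in PCR are counted as separate observations.

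The estimated counts, rounded to whole numbers, came to 19861937 for the siCont library, 19900580 for siERRG2 and 20016780 for siERRG3. ESRRG was counted 806, 211 and 230 times, here and below in the order siCont, siERRG2, siERRG3, which gave ratios to siCont of 0.259 (0.221 to 0.302) and 0.281 (0.241 to 0.325), so the target was lower than in siCont in both ESRRG libraries. The 7 neuroendocrine markers analysed (INSM1, CHGA, SYP, NCAM1, UCHL1, DLL3 and NEUROD1) had 389 to 16031 counts each in siCont, and their summed level was 2529, 2185 and 2532 CPM (counts scaled to library size). Single markers moved more than this sum, with INSM1 at 0.504 of siCont in siERRG2, and NEUROD1 at 0.542, SYP at 0.704 and UCHL1 at 1.37 times siCont in siERRG3. The epithelial, leukocyte and fibroblast markers summed to at most 16.9 CPM in any library. The 3 endothelial markers summed to 75.2, 82.4 and 30.4 CPM, nearly all of it CDH5 with 1456 siCont counts, while VWF was at 0 and PECAM1 at 27. Whether these differences bear on the genes described below was not tested.

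p53 is a transcription factor that DNA damage and other stresses stabilize. It switches on genes for cell cycle arrest, DNA repair, metabolic adjustment and cell death, and among its targets are its own inhibitors, so that its activity is limited by feedback. MDM2 is the ubiquitin ligase that marks p53 for degradation, and MDM4 is its relative, which binds p53 and blocks its activity. SCLC nearly always loses functional p53 and RB, and several of these genes also answer to signals other than p53.

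The promoters of CDKN1A, MDM2 and ZMAT3 are shown for the contrast between these genes. MDM2 was the 1 member at least 1.2-fold lower in both ESRRG libraries, only just so in siERRG2. CDKN1A and ZMAT3 passed 1.2-fold in opposite directions. Each sequence is from RefSeq in GRCh38.p14 and runs from 250 bases before to 50 bases after the annotated start, on the strand of the gene, with GC boxes in capitals. A GC box, the motif of Sp1-family factors, is GGGCGG on either strand, and overlapping boxes were counted separately.
CDKN1A, chr6:36678464-36678763, plus strand: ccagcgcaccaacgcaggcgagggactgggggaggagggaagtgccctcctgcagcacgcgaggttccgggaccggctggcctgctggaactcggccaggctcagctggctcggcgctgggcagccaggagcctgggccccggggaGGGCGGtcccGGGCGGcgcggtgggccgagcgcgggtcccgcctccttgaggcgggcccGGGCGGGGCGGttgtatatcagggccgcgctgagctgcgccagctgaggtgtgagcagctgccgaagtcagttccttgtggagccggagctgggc
MDM2, chr12:68807922-68808221, plus strand: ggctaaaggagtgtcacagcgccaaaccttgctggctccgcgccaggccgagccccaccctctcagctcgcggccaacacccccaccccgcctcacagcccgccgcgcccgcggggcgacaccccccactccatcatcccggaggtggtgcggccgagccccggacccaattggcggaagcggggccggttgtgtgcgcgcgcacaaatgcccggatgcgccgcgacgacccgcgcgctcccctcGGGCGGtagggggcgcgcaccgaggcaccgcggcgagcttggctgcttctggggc
ZMAT3, chr3:179071760-179072059, minus strand: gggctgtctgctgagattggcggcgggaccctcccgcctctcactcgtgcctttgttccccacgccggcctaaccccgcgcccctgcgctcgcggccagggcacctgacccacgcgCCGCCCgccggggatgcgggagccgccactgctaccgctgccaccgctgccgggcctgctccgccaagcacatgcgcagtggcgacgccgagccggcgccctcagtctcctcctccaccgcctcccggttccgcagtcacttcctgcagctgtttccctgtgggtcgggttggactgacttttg

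Promoters were found for 8 of the 10 genes, all but GADD45A and RRM2B. The CDKN1A window holds 4 GC boxes, and those of MDM2 and ZMAT3 hold 1 each. A GC box lay in 6 of the 8 promoters, against 63.9% of the 13693 promoters matched to the table. The 10-base p53 half-site was found on either strand in 0 of the 8 windows (5.59% of all promoters), and the ERR half-site AAGGTCA, the motif that ERRγ binds, also in 0 of the 8 (2.81% of all). These matches describe the letters of the windows alone, and the best-known p53 elements of CDKN1A and MDM2 lie outside them, upstream and in the first intron. The windows of CDKN1A and MDM2 have a like base composition, with 74.3% and 74.7% G or C against a median of 64.0% over all promoters.

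Levels were first compared between the members in the control cells, on the deposited expression value, which behaves as FPKM and is thus per length. CDKN1A, which encodes the CDK inhibitor p21, was the highest at 159.78 FPKM in siCont, above 96.8% of the genes tested. It was followed by CCNG1 with 44.09, GADD45A with 30.47, SESN1 with 11.14, PPM1D with 10.28 and MDM2 with 7.96 FPKM. MDM4 with 4.29, RRM2B with 3.50, ZMAT3 with 2.84 and GADD45B with 2.0 FPKM were the lowest. Of the 9 neighbouring pairs in this order, 2 had counting intervals that overlapped, SESN1 with PPM1D and ZMAT3 with GADD45B. MDM2 was thus in the middle of the genes that passed the filter, above 49.8% of those tested. CDKN1A stayed first in all 3 libraries, whereas GADD45A moved from the third place in siCont to the second in siERRG3, and ZMAT3 from the ninth to the last.

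**Figure D1:**
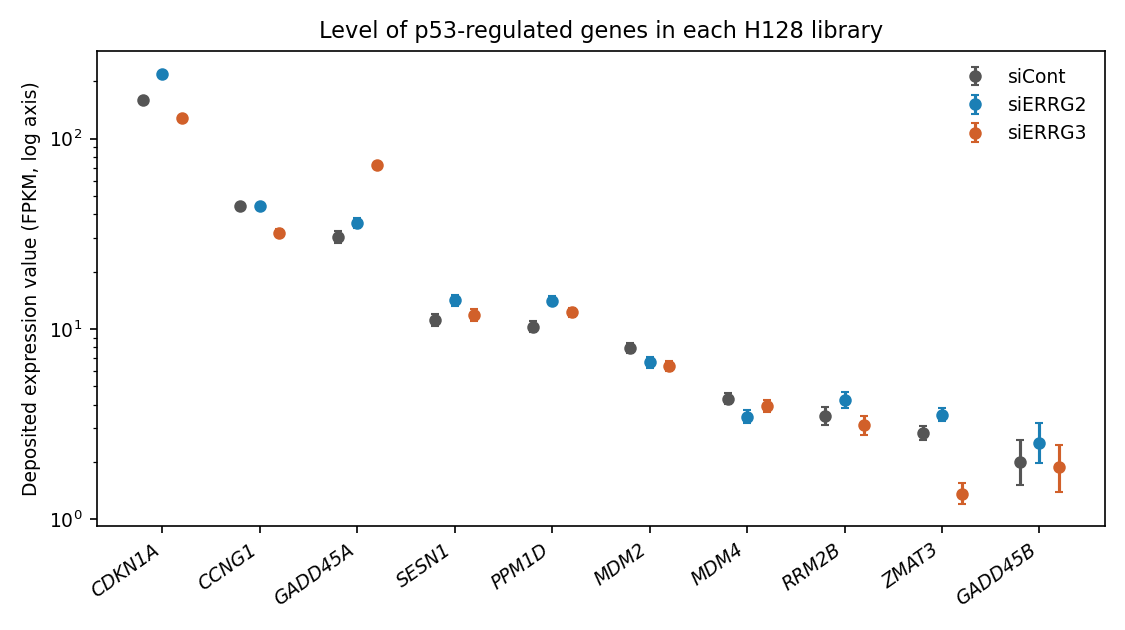
Deposited expression value (FPKM, log axis) of the 10 p53-regulated genes in the siCont, siERRG2 and siERRG3 libraries, 1 library each; bars are 95% exact Poisson counting intervals scaled to FPKM. CDKN1A runs from 128.02 to 218.53 FPKM with siCont in the middle, and ZMAT3 drops to 1.36 FPKM in siERRG3.

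Counted at 1.2-fold, the threshold of the study, on TMM-scaled log2 CPM, 6 of the 10 members were higher in siERRG2 than in siCont (16.4% of all genes tested were) and 2 were lower (19.2% of all). In siERRG3, 1 was higher (23.2% of all) and 4 were lower (25.1% of all). None was higher in both (7.26% of all), 1 was lower in both (7.88% of all), and 2 passed the threshold in opposite directions (6.05% of all). Both comparisons share the siCont library, and the members were picked with these values known, so nothing is read from the counts against the background. The median log2 fold change of the 10 was 0.29 in siERRG2 and -0.16 in siERRG3, against 0.00 and 0.00 over all genes. Scaled by total counts, by DESeq2 size factors or on FPKM, 1 member rather than 2 was lower in siERRG2, so that the share of higher calls went from 75.0% to 85.7%.

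MDM2 and MDM4, the inhibitors of p53, were both lower in siERRG2. MDM2 (gene 4193, chromosome 12 from 68759431 to 68933190 in the table's GRCh38 coordinates) was counted 1137, 954 and 915 times. Both ESRRG libraries were below siCont and close to each other. Relative to siCont, siERRG2 had 0.830 (0.760 to 0.905) and siERRG3 0.791 (0.725 to 0.864), or -0.27 and -0.34 as log2 fold changes. MDM2 was the one member at least 1.2-fold lower in both, but only just so in siERRG2. There its log2 fold change was -0.256 with total counts, -0.260 with DESeq2 size factors and -0.252 on FPKM, all short of the threshold. The deposited MDM2 counts held fractions, which can arise where a read is divided among genes. The extent the table gives MDM2 is wider than that of RefSeq (68808172 to 68850686) and overlaps 3 other genes of the table, the carboxypeptidase gene CPM with 60, 44 and 73 counts, SLC35E3 with 481, 426 and 505, and NUP107 with 1489, 1760 and 1443. None of these was below siCont in both libraries, and the part of their reads in its value was not tested. By the RefSeq extents, CPM alone of the table's genes overlaps MDM2.

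MDM4 (gene 4194, chromosome 1 from 204506367 to 204596264) was counted 830, 664 and 771 times. It was lowest in siERRG2, with a ratio of 0.791 (0.713 to 0.877), and its ratio of 0.913 (0.827 to 1.01) in siERRG3 did not differ from 1 beyond counting error. On the FPKM scale the level of MDM4 was 0.539 times that of MDM2 in siCont, 0.517 times in siERRG2 and 0.616 times in siERRG3. MDM2 stood above its relative in each of the 3 libraries. The MDM4 counts also held fractions, and the table's extent of MDM4 overlaps PLEKHA6, with 859, 360 and 510 counts, which like MDM4 was lowest in siERRG2. MDM4 also lies inside an unnamed gene (105373132) with 45, 45 and 40, which the table runs from 224941 to 228650007. By the RefSeq extents, 0 genes of the table overlap MDM4. The part of PLEKHA6 reads in the MDM4 value was not tested.

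PPM1D and CCNG1 belong to the same feedback. PPM1D encodes the phosphatase WIP1, which removes activating phosphates from p53 and from the damage kinases, and cyclin G1, the product of CCNG1, brings a phosphatase to MDM2. PPM1D (gene 8493, chromosome 17 from 60596055 to 60666280) was counted 987, 1353 and 1181 times. Both ESRRG libraries were above siCont, the opposite side from MDM2. The ratio was 1.36 (1.25 to 1.47) for siERRG2 and 1.18 (1.08 to 1.28) for siERRG3, so that in the second the interval lay above 1 while the ratio stayed short of 1.2-fold. Its counts held fractions, and the table's extent overlaps BCAS3, whose 1377, 1288 and 799 counts put both ESRRG libraries below siCont. The RefSeq extents of 0 genes of the table overlap PPM1D. CCNG1 (gene 900, chromosome 5 from 163437571 to 163460413) was counted 2114, 2118 and 1531 times. It was level with siCont in siERRG2, at 0.991 (0.932 to 1.05), and lower in siERRG3, at 0.712 (0.666 to 0.761). NUDCD2, which overlaps CCNG1, had 1003, 1195 and 1211 counts. The library kit kept strand, but whether the counting used it is not given in the sources used here. Of these 4 genes, MDM2 and MDM4 had ratios below 1 in both libraries and PPM1D above 1 in both. The MDM4 interval in siERRG3 (0.827 to 1.01) spanned 1. Differences between the genes were not tested.

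CDKN1A, whose product p21 holds cyclin-dependent kinases in check and is the best-known arrest target of p53, went opposite ways. CDKN1A (gene 1026, chromosome 6 from 36676460 to 36696136) was counted 6799, 9349 and 5507 times. The control lay between the ESRRG libraries. Relative to siCont, siERRG2 had 1.36 (1.32 to 1.403) and siERRG3 0.797 (0.769 to 0.825), and siERRG3 had 0.586 (0.567 to 0.606) of the siERRG2 level, a comparison that does not involve siCont. Its counts were whole numbers in all libraries, no other gene of the table overlaps it by either extent, and at this depth the intervals are narrow. CDKN1A alone made up 47.7% of the summed CPM of the 10 members in siCont, 53.8% in siERRG2 and 41.8% in siERRG3. Without it the other members summed to 378, 402 and 382 CPM.

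The GADD45 genes encode small stress proteins that bind p21, PCNA and stress kinases upstream of p38 and JNK. GADD45A (gene 1647, chromosome 1 from 67685146 to 67688338) was counted 820, 975 and 1964 times. The siERRG3 library stood apart, and siERRG2 was a little above siCont. The ratio was 1.18 (1.07 to 1.29) for siERRG2 and 2.36 (2.17 to 2.56) for siERRG3, where 98.3% of the genes tested had a lower fold change. GADD45A was the one member at least 1.2-fold higher in siERRG3. The table's extent of GADD45A overlaps that of GNG12, although the RefSeq extents do not overlap, and GNG12 was also highest in siERRG3 with 993, 1127 and 1607 counts, a ratio of 1.12 and 1.59. The unnamed gene 105373132 overlaps GADD45A in the table too, where that gene runs from 224941 to 228650007. The part of GNG12 reads in the GADD45A value was not tested, and the counts of both genes were whole numbers.

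GADD45B (gene 4616, chromosome 19 from 2476125 to 2478259) was counted only 55, 71 and 51 times. Its ratio was 1.28 (0.885 to 1.85) for siERRG2 and 0.912 (0.611 to 1.36) for siERRG3, so a difference was not detectable at this depth in either. It passed the 1.2-fold threshold in siERRG2 on size alone. In the table it overlaps LMNB2, with 6772, 5998 and 6572 counts, and TMPRSS9, with 3, 2 and 4. The RefSeq extents of these genes do not overlap GADD45B. On the FPKM scale GADD45A stood 15.2 times above GADD45B in siCont, 14.3 times in siERRG2 and 38.8 times in siERRG3.

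SESN1 and RRM2B act in metabolism and nucleotide supply. SESN1 encodes sestrin 1, which restrains mTORC1, and RRM2B encodes the p53-inducible small subunit of ribonucleotide reductase, which supplies deoxynucleotides for repair. SESN1 (gene 27244, chromosome 6 from 108985822 to 109243579) was counted 652, 821 and 704 times, with ratios of 1.25 (1.12 to 1.38) for siERRG2 and 1.06 (0.953 to 1.18) for siERRG3. It overlaps ARMC2, with 48, 55 and 76 counts, and in the table CEP57L1, with 428, 401 and 524. RRM2B (gene 50484, chromosome 8 from 102196582 to 102239118) was counted 342, 419 and 306 times, with ratios of 1.21 (1.05 to 1.401) for siERRG2 and 0.880 (0.752 to 1.03) for siERRG3. In the table RRM2B overlaps LOC105375683, with 1, 3 and 0 counts, whereas by the RefSeq extents 0 genes of the table overlap RRM2B. SESN1 and RRM2B were highest in siERRG2, and neither differed from siCont beyond counting error in siERRG3.

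ZMAT3 encodes a zinc finger protein that binds RNA and acts on splicing and transcript stability downstream of p53. ZMAT3 (gene 64393, chromosome 3 from 178908522 to 179114906) was counted 515, 643 and 249 times. It was a little above siCont in siERRG2, and in siERRG3 it had the lowest ratio of the 10 members. The siERRG2 ratio was 1.23 (1.10 to 1.39), a log2 fold change of 0.30, and the siERRG3 ratio was 0.475 (0.407 to 0.554), or -1.07, where 2.07% of the genes tested had a lower fold change in siERRG3. In siERRG3 its level was 0.385 (0.331 to 0.447) times that of siERRG2. The ZMAT3 counts held fractions. The table gives it a wider extent than RefSeq (179017223 to 179072513). MUC4, with 1, 0 and 1 counts, overlaps ZMAT3 in the table because its extent there runs from 117262 to 195815763. By the RefSeq extents, 0 genes of the table overlap ZMAT3.

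**Figure D2:**
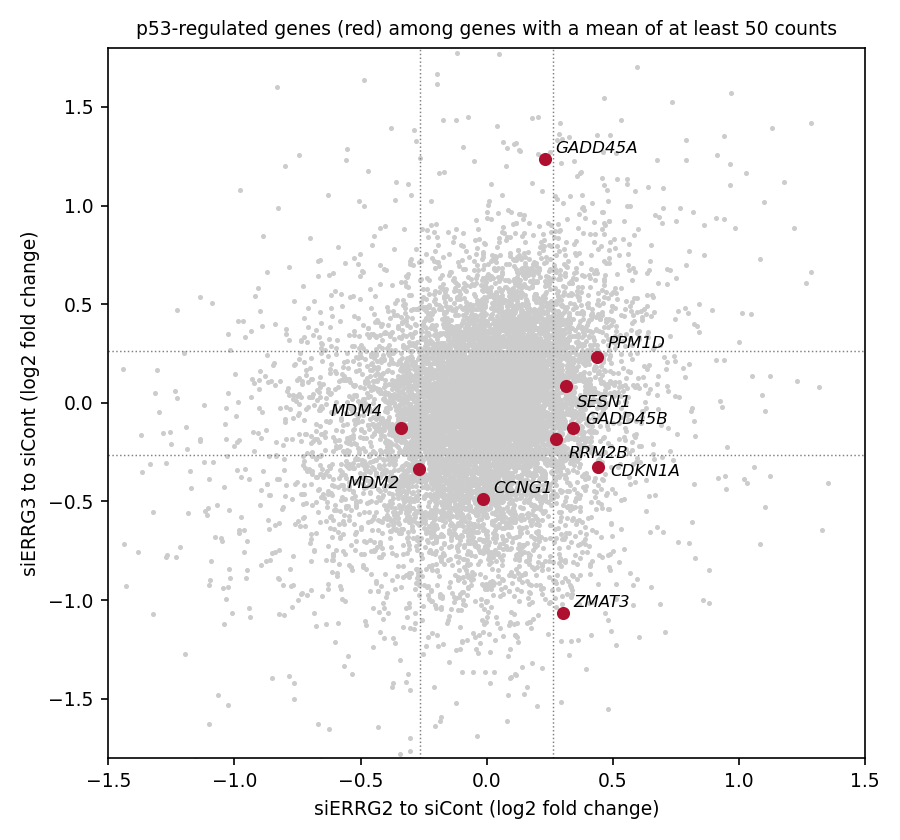
Log2 fold change to siCont in siERRG2 (horizontal axis) and siERRG3 (vertical axis) for the 10 members (red) and for all genes averaging 50 counts or more (grey, 11369 genes, of which 39 lie outside the axes); dotted lines mark 1.2-fold. The axes share the siCont library. The members spread over the plot, from GADD45A at 1.23 to ZMAT3 at -1.07 on the vertical axis.

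The ESRRG libraries were also set against each other, which leaves siCont out. At least 1.2-fold lower in siERRG3 than in siERRG2 were 5 of the 10 members (25.3% of all genes tested), CDKN1A, GADD45B, CCNG1, RRM2B and ZMAT3, and 1 was higher (26.4% of all), GADD45A. The ratio for GADD45A was 2.004 (1.86 to 2.17) and that for CCNG1 0.719 (0.673 to 0.768). For MDM2 it was 0.954 (0.870 to 1.05), which is the range that counting error allows and does not show that the levels were alike. The interval lay above 1 for GADD45A and MDM4, spanned 1 for MDM2 and GADD45B, and lay below 1 for the other members. The share of all genes with such intervals is not given here, so nothing is read from them about the members as a set. The level of ESRRG in siERRG3 was 1.08 (0.896 to 1.31) times that in siERRG2, and its part in these differences was not tested.

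Among the 7253 genes averaging 500 counts or more, those with log2 fold changes nearest to MDM2, by Euclidean distance over both comparisons to siCont, were RBM4B at 0.0113, TIAM1 at 0.0130 and WNK2 at 0.0155. RBM4B was counted 582, 492 and 468 times. Nearest to CDKN1A were SNCAIP at 0.0442, DDHD2 at 0.0449 and TP53I11 at 0.0503. TP53I11, named as a p53-inducible gene, had 4431, 6309 and 3596 counts in the same order. The likeness rests on 3 libraries, and none of these 6 genes is in the Hallmark p53 pathway set of the table.

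TP73, a p53 relative that binds many of the same sites, stood at 109.75, 85.54 and 71.96 FPKM. Its 11272, 8815 and 7450 counts gave a ratio of 0.773 (0.752 to 0.795) for siERRG2 and 0.650 (0.631 to 0.669) for siERRG3. It was thus below siCont in both ESRRG libraries, as was MDM2. The lists that follow are to be read against all genes tested, of which 16.4% were higher and 19.2% lower in siERRG2, and 23.2% and 25.1% in siERRG3. Of the 21 genes listed as p53 and its regulators, 0 were higher and 3 lower in siERRG2, and 3 were higher and 4 lower in siERRG3, and TP73 was the one lower in both.

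Of 12 paralogues of the members, 11 passed the filter, and 0 were higher and 4 lower in siERRG2, while 1 was higher and 5 were lower in siERRG3 (all genes 16.4% and 19.2%, then 23.2% and 25.1%). SESN3, the most abundant sestrin transcript here at 34.65 FPKM in siCont, had 6591, 4719 and 4334 counts, a ratio of 0.708 (0.682 to 0.735) and 0.647 (0.622 to 0.672), below siCont in both libraries where SESN1 was not. GADD45G had 433, 309 and 744 counts, a ratio of 0.706 (0.608 to 0.818) for siERRG2 and 1.69 (1.499 to 1.91) for siERRG3. In siERRG3 it was thus higher than in siCont, as GADD45A was, and in siERRG2 it was lower.

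Of 21 cell death targets, 17 passed the filter, and 5 were higher and 2 lower in siERRG2, and 7 higher and 4 lower in siERRG3 (all genes 16.4% and 19.2%, then 23.2% and 25.1%), with medians of -0.08 and 0.22. PMAIP1, which encodes the BH3-only protein NOXA, had 594, 842 and 1006 counts, a ratio of 1.401 (1.26 to 1.56) and 1.67 (1.503 to 1.85), and was the one cell death target higher in both. TP53INP1, a stress gene that promotes autophagy and death, had 1177, 1451 and 622 counts, the largest opposite change of this list, with a ratio of 1.22 (1.13 to 1.32) and 0.520 (0.471 to 0.573). Its order of libraries, siERRG2 above siCont above siERRG3, was that of CDKN1A and ZMAT3. RRM2B and GADD45B had the same order, though neither differed from siCont beyond counting error in siERRG3.

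Of 13 arrest and feedback targets, 10 passed the filter; 4 were higher and 0 lower in siERRG2, and 5 were higher and 1 lower in siERRG3. Over all genes the shares were 16.4% and 19.2%, then 23.2% and 25.1%, and they apply equally to the repair and metabolic lists. PLK3, a stress-responsive kinase, had 96, 140 and 217 counts, a ratio of 1.44 (1.10 to 1.89) and 2.22 (1.74 to 2.86). All 10 repair targets passed the filter, with 2 higher and 2 lower in siERRG2 and 1 higher and 2 lower in siERRG3. ERCC5, a nuclease of nucleotide excision repair, had 288, 524 and 415 counts, a ratio of 1.799 (1.56 to 2.08) and 1.42 (1.22 to 1.65). POLH, the translesion polymerase eta, went opposite ways with 902, 1152 and 744 counts, a ratio of 1.26 (1.16 to 1.38) and 0.811 (0.735 to 0.895). TP53INP2, placed in this list although it is known for autophagy, had 1505, 1133 and 1230 counts. Of 26 metabolic and other targets, 25 passed, with 6 higher and 4 lower in siERRG2 and 6 higher and 7 lower in siERRG3; KITLG was higher in both with 399, 513 and 576 counts, and CYFIP2 and PLXNB2 were lower in both.

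Genes that p21 and the DREAM complex repress are cell cycle genes, and the 22 listed all passed the filter. In siERRG2, 1 was higher and 5 were lower, and in siERRG3, 1 was higher and 10 were lower (all genes 16.4% and 19.2%, then 23.2% and 25.1%), with medians of -0.16 and -0.21 against 0.00 over all genes. FOXM1, a mitotic transcription factor, had 4303, 3334 and 3322 counts, a ratio of 0.766 (0.732 to 0.802) and 0.759 (0.725 to 0.795). CCNB2 with 2732, 1672 and 2015 counts and BIRC5 with 3986, 2842 and 2867 were also lower in both, whereas CDC25A was higher in both with 1965, 2414 and 2531. CDKN1A was higher than siCont in the first of these libraries and lower in the second, and whether the list differed between them was not tested. Over the 125 genes of all these lists, 116 passed the filter, and 7 were higher in both ESRRG libraries, 10 lower in both and 6 opposite, where all genes gave 7.26%, 7.88% and 6.05%.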

How the data were processed

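RNA-seq of H128 cells comprised 1 library each of siCont, siERRG2 and siERRG3. The authors deposited a gene table with estimated counts (expected counts), not normalized, and an expression value whose unit is not named and that behaves as FPKM. The methods name BWA and Bowtie 2 and GRCh37/hg19, while the submitters' processing notes list TopHat2, HTSeq and DESeq2 with hg19 and GRCh38, and the table's coordinates are GRCh38; the counting program is not given in the sources used here. Between 54.0% and 54.9% of the counts were whole. The authors' fold changes and p-values in the table were not used. Estimated counts were rounded, genes with at least 10 counts in 1 library kept, and libraries scaled with TMM (edgeR 4.0.16, R 4.3.3; factors 0.994, 1.003 and 1.003); log2 CPM used a prior count of 2, and genes were called at 1.2-fold. With 1 library per condition no test was made. Ratio intervals came from SciPy 1.17.1. The computations were tested on simulated data.

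The 10 members and the gene lists were chosen with earlier results of these data known; the Hallmark and KEGG sets and the promoter motifs were added later. Named genes are the members, ESRRG, genes whose extent in the table overlaps that of a member, the 3 nearest to MDM2 and to CDKN1A, and list genes averaging at least 50 counts that passed 1.2-fold in the same direction in both libraries with both intervals excluding 1, or showed the largest opposite change of their list; a gene the rule also names is not reported here. Alternatives were total counts, DESeq2 1.42.0 size factors, FPKM with a pseudocount of 0.1, a prior count of 0.5, other filters, and thresholds of 1.5-fold and 2-fold.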

Additional observations from a re-analysis of the deposited data

Results flagged for a closer look

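Of the 10 members, 2 passed 1.2-fold in opposite directions in the ESRRG libraries (6.05% of all genes tested did), with 1 library each. The members were chosen because their counts did not move together, so opposite changes among them are part of the choice. The difference was not tested. CDKN1A was higher than siCont in siERRG2 and lower in siERRG3, with a log2 fold change of -0.771 in siERRG3 to siERRG2. ZMAT3 did the same, with -1.369. ESRRG itself had 211 counts in siERRG2 and 230 in siERRG3.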

How the results depend on the processing

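No paired analysis was possible because each condition has 1 library, and for the same reason none could be left out. The 180 values of the members' log2 fold changes under 6 alternative settings all stayed within the counting interval of the main value, with a largest shift of 0.058, and 0 of those that passed 1.2-fold changed sign. All 6 settings reuse the same libraries, so this bears on the processing only and not on the spread between cultures. The number of members lower in siERRG2 was 1 instead of 2, and the number lower in both libraries 0 instead of 1, with total counts, with DESeq2 size factors and on FPKM, because MDM2 lay at the threshold. At 1.5-fold and at 2-fold, 0 members were higher or lower in siERRG2, 0 were lower in both, and 0 were opposite. In siERRG3, 1 was higher (GADD45A) and 1 lower (ZMAT3) at both thresholds. Of the 14031 genes tested, 602 were higher and 978 lower in siERRG2 at 1.5-fold, and 181 and 327 at 2-fold. In siERRG3 the numbers over all genes were 1188 and 1396, then 409 and 372. Opposite changes numbered 123 at 1.5-fold and 18 at 2-fold, so nothing is read from the member counts. Ranked by counts rather than per length, 7 of the 10 members changed place in siCont.

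Counts over all genes moved most with the filter and the threshold. Without a filter 3455 genes were higher in siERRG2 (2295 in the main analysis), 1598 higher in both (1019) and 1852 lower in both (1106). With a mean of at least 50 counts, 1421 were higher and 1789 (2689) lower in siERRG2, 513 higher and 693 lower in both, and 523 (849) opposite. With intervals that exclude 1, 1428 were higher in siERRG2, 459 higher and 687 lower in both, and 410 opposite. At 1.5-fold, 259 were higher and 288 lower in both, and at 2-fold 70 and 66. Of the fixed lists, 0 genes were higher and 1 lower in both at 1.5-fold (7 and 10), and 0 and 0 at 2-fold. Of the Hallmark set, 11 rather than 17 were higher in both with a mean of at least 50 counts, 9 with intervals that exclude 1, and 8 rather than 15 lower in both on FPKM; at 1.5-fold the numbers were 6 and 1, and at 2-fold 2 and 0. Depth limits GADD45B most, with 51 to 71 counts per library.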

Other observations

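The table assigns 195 genes to the Hallmark p53 pathway set, 7 of the 10 members among them, and 175 passed the low-count filter. In siERRG2, 40 were at least 1.2-fold higher and 31 lower, and in siERRG3 50 and 41 (all genes 16.4% and 19.2%, then 23.2% and 25.1%), with median log2 fold changes of 0.057 and 0.066 against 0.00 and 0.00 over all genes. In both libraries 17 were higher and 15 lower, and 12 were opposite, where all genes tested gave 7.26%, 7.88% and 6.05%. Among the genes higher in both, ATF3, a stress-induced transcription factor, was counted 271, 417 and 510 times (in the order siCont, siERRG2, siERRG3), and SLC7A11, the cystine transporter, had 215, 303 and 359. SPHK1, a sphingosine kinase, had 81, 136 and 133, and RGS16, a regulator of G protein signaling, had 3757, 5174 and 4921. Lower in both were TXNIP, an inhibitor of thioredoxin, with 1201, 829 and 975 counts, STEAP3, a ferrireductase, with 1499, 984 and 980, and HRAS with 1748, 1266 and 1408. RETSAT, an enzyme that saturates retinol, had the largest opposite change of the set, with 531, 750 and 183 counts. These examples were named after their values were seen. In the KEGG p53 signalling set, 83 of 86 genes passed the filter, and 4 were higher and 9 lower in both libraries and 9 opposite (all genes 7.26%, 7.88% and 6.05%).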
